A study of Mus musculus with 89 samples.

Results

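Gart and the enzymes that work beside it in de novo purine synthesis were followed across trisomic and euploid mouse forebrain. The members were the genes Ppat, Gart, Pfas, Paics, Adsl, Atic, Impdh2 and Gmps, chosen by name as the enzymes of the pathway and of its branch to GMP, with no use of measured values. A member counted as measured where 1 probe set of the array carried its symbol alone. This held for 6 of the 8 named genes, each with 1 probe set among the 22206 on the array. Pfas and Impdh2 matched no row of the annotation used and were not analysed here. Gart lies on mouse chromosome 16 (Mmu16), in the part that is present in 3 copies in both models. The other measured members lie on chromosomes 5 (Ppat and Paics), 15 (Adsl), 1 (Atic) and 3 (Gmps) and are in 2 copies in all groups.

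The study measured 89 forebrains at embryonic day 18.5, 1 Clariom S array per embryo, in 2 mouse models of Down syndrome. Ts65Dn carries a small extra chromosome that holds the distal end of Mmu16 joined to a centromeric piece of chromosome 17. Ts66Yah carries the same Mmu16 part with the chromosome 17 genes that have no counterpart on human chromosome 21 removed. There were 23 Ts65Dn embryos and 18 euploid siblings (EupTs65Dn), and 24 Ts66Yah embryos with 24 euploid siblings (EupTs66Yah). All groups shared a mixed B6 and C3H background, received no treatment and held embryos labelled female and male. Ts65Dn embryos came from trisomic dams, because Ts65Dn males are infertile, crossed to B6EiC3Sn.BLiAF1/J males, so their extra chromosome was always maternal. The Ts66Yah colony went back to 3 founder females and was expanded by in vitro fertilization with sperm of 4 males. Each colony was represented by 6 litters, so embryos of a litter share a dam and are not fully separate samples of a genotype.

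De novo synthesis builds the purine ring atom by atom on phosphoribosyl pyrophosphate (PRPP) and ends at inosine monophosphate (IMP), from which AMP and GMP are made. Some of the ring carbons come from formyl groups carried by folate, and Gart, a protein with several enzyme activities, places one of them. Its human counterpart lies on chromosome 21, which is why purine levels and Gart dosage have long been of interest in Down syndrome, and dividing cells of the developing brain draw on the pathway to make nucleotides.

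Where the genes start is shown first, for Gart and for the neighbour that shares its upstream region, and for the member pair with the closest starts. Son, which encodes a splicing cofactor, is transcribed away from Gart, and the RefSeq starts of the genes are 852 bases apart on opposite strands. Ppat and Paics lie on opposite strands with starts 276 bases apart, and their annotated 5′ ends overlap. Son, Ppat and Paics were chosen for display after their values were seen. Each sequence is a RefSeq region of 300 bases in build GRCm38.p6, from 250 bases before the start to 50 bases from the start on, written 5′ to 3′ on the gene's own strand. The regions are chr16:91646923-91647222 on the minus strand for Gart, chr16:91647574-91647873 on the plus strand for Son, chr5:76951529-76951828 on the minus strand for Ppat and chr5:76951052-76951351 on the plus strand for Paics. Capitals mark the letters CACGTG (the E-box read by MYC), CCAAT (read by NF-Y), GGGCGG (read by SP1) and TGATGCAA (read by ATF4) on either strand.
Gart: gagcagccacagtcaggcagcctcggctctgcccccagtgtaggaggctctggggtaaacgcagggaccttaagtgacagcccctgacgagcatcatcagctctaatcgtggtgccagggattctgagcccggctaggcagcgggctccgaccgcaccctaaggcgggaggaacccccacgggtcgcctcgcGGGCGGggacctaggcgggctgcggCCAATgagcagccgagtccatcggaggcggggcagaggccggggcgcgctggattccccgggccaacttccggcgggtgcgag
Son: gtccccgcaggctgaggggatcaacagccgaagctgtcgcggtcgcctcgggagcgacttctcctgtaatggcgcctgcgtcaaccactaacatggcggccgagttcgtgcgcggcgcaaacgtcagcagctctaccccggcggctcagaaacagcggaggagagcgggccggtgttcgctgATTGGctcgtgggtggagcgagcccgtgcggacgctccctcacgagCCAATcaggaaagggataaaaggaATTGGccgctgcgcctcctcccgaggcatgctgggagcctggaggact
Ppat: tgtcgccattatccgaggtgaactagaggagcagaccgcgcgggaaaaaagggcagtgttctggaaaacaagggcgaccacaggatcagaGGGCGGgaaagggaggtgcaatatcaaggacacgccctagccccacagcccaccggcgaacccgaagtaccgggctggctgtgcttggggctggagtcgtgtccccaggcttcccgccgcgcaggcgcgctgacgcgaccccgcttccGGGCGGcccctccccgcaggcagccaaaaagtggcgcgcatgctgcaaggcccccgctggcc
Paics: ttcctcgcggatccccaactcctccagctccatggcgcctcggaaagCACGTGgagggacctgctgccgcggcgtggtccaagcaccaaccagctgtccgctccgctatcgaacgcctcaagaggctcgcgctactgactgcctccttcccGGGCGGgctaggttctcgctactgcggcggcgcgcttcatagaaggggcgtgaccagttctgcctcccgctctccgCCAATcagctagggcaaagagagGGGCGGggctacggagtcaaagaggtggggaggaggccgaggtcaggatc

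The Gart region held 1 GGGCGG, 58 bases before the start, and 1 CCAAT, 33 bases before it. The Son region held 3 CCAAT and none of the other motifs. The Ppat region held 2 GGGCGG, and the Paics region held 1 CACGTG, 1 CCAAT and 2 GGGCGG. None of the member regions in the table, which has none for Pfas, held TGATGCAA. Among all 32851 RefSeq regions of this length, 7.15% held CACGTG, 37.4% CCAAT, 35.7% GGGCGG and 0.895% TGATGCAA, so the 2 motifs of the Gart region are common ones. GC content was 69.3% in the Gart region and 53.7% to 69.7% over the regions of the other members, against a median of 52.7% over all regions. The array measures transcripts, and nothing was measured here at these sequences.

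Values are log2 signals, on which a difference of 1 is a doubling. The colonies lay at different overall levels, with array means of 5.26 to 5.33 in the Ts65Dn colony and 6.35 to 6.41 in the Ts66Yah colony leaving out 1 array, so signals were compared only within a colony. That array, a EupTs66Yah embryo of litter WT18, had a mean of 6.05 and a standard deviation over all probe sets of 1.13 where the other 23 of that group ran from 2.23 to 2.39. It was left out of the main Ts66Yah comparison, and the values with it are given beside the results it touches. On 4 other arrays the mean of the triplicated Mmu16 genes, Gart left out, lay nearer to the other genotype of the colony: 1 labelled Ts65Dn, 2 labelled Ts66Yah and 1 labelled EupTs66Yah. They were kept under their labels, and values without them are given too. Of 9 forebrain markers 7 were measured, and Neurod6, Tbr1, Dlx1, Dlx2, Gad1 and Gad2 were brighter than at least 82.2% of probe sets in both colonies, Emx1 than 51.6% and 45.5%. The midbrain and hindbrain markers En1, En2, Hoxb2, Hoxb3 and Hoxa2 were brighter than 26.6% to 44.4% in the Ts65Dn colony. In the Ts66Yah colony they were brighter than 48.4% to 54.7%, each above Emx1 there. Their mean signal ran from 5.42 to 7.33 in EupTs66Yah and from 4.99 to 7.06 in Ts66Yah embryos. The Ts65Dn colony was narrower, with 3.62 to 4.08 in EupTs65Dn and 3.63 to 4.49 in Ts65Dn. Of the choroid plexus markers, Ttr was brighter than at least 99.6% and Folr1 and Kl than 25.7% to 59.9%. None of these markers was called between genotypes. In bulk tissue of this kind, fewer cells of a type and less RNA per cell cannot be told apart.

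Gart was higher in both trisomic groups, by 1.44-fold in Ts65Dn and 1.52-fold in Ts66Yah, and was the only measured member called in either model. Ppat, Paics, Adsl, Atic and Gmps ranged from 0.910-fold to 1.06-fold in Ts65Dn and from 0.982-fold to 1.02-fold in Ts66Yah, and none passed the threshold. A change was called at an adjusted p under 0.1 (limma, Benjamini-Hochberg over all probe sets), the rate of 10% that the study used. Of all 22206 probe sets, 109 (0.491%) were called in Ts65Dn and 207 (0.932%) in Ts66Yah. The Ts66Yah calls were 168 higher and 39 lower, a split that became 98 and 113 when each array was centred on its median. With the low-spread array kept in, 38 probe sets (0.171%) were called in Ts66Yah, and Gart was not among them (fold 1.75, limma adjusted p = 0.14).

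**Figure D1:**
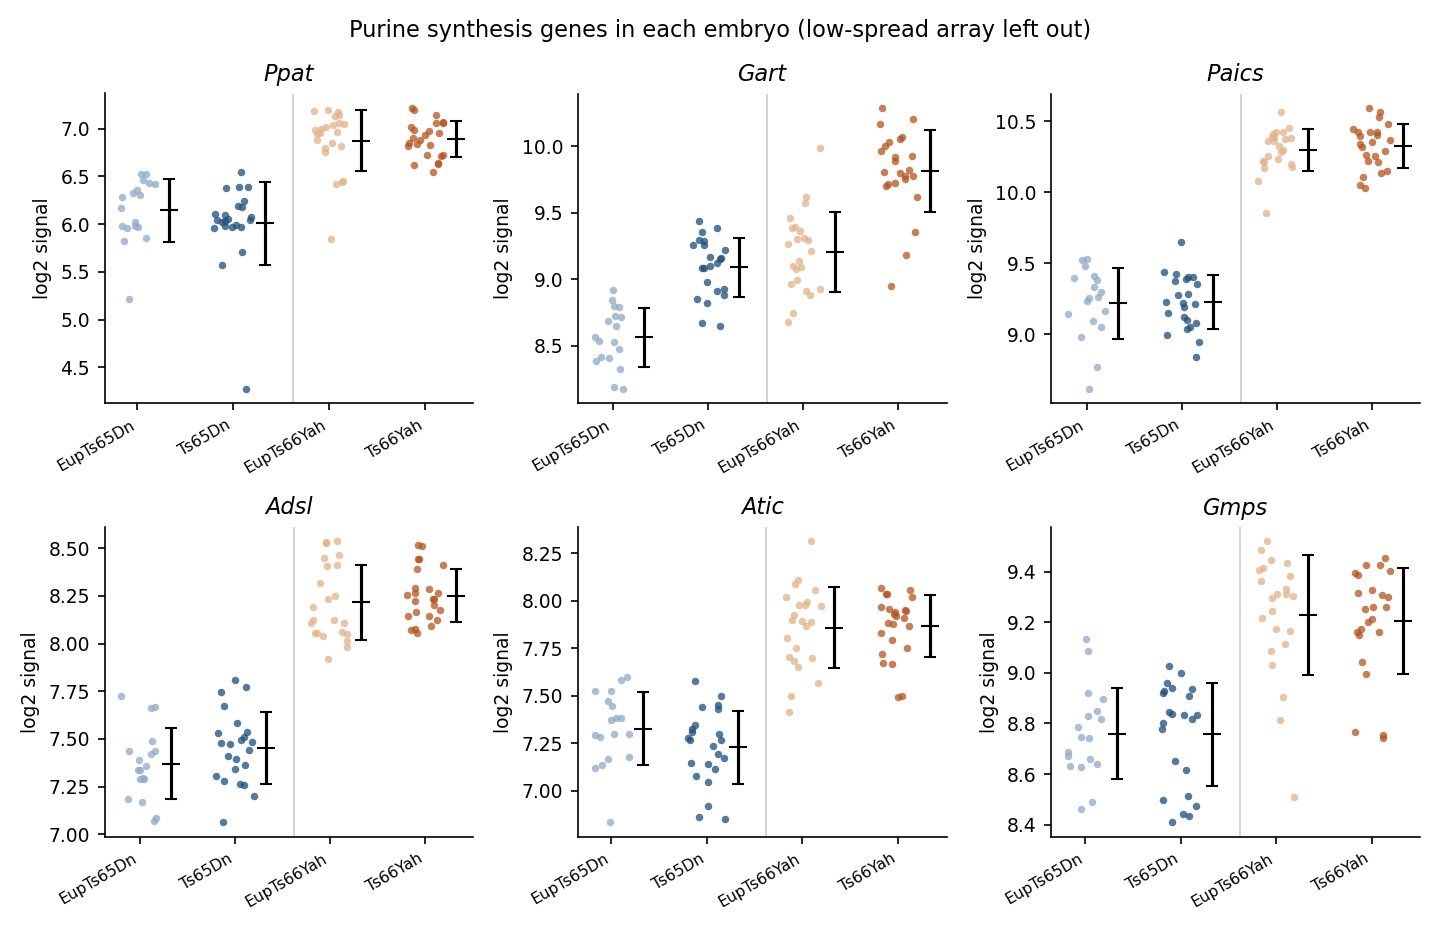
Each point is 1 embryo, with the log2 signal of a member on the vertical axis and the 4 genotype groups on the horizontal axis (18, 23, 23 and 24 embryos); black bars are the mean and SD, and the vertical scale differs between panels. The Gart clouds are shifted upward in both trisomic groups, while the other panels show trisomic and euploid clouds side by side.

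Gart encodes the protein that carries the glycinamide ribonucleotide synthetase, formyltransferase and aminoimidazole ribonucleotide synthetase activities. In EupTs65Dn embryos its signal ran from 8.18 to 8.92 with a median of 8.55, and in Ts65Dn embryos from 8.65 to 9.44 with a median of 9.12. The groups overlapped only in part: 17 of 23 Ts65Dn embryos lay above every euploid embryo, and all 23 lay above the euploid median. The lowest Ts65Dn embryo was the array of that group whose other Mmu16 genes stood nearer to the euploid level. The group means were 8.56 ± 0.219 (SD, n = 18) and 9.09 ± 0.220 (SD, n = 23). The difference was 0.53 on the log2 scale (SE 0.070, 95% interval 0.38 to 0.67, limma adjusted p = 1.67e-06).

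In the Ts66Yah colony, the 23 euploid embryos ran from 8.68 to 9.98 with a median of 9.21, and the 24 Ts66Yah embryos from 8.95 to 10.29 with a median of 9.81. Here 22 of 24 trisomic embryos lay above the euploid median but only 7 lay above every euploid embryo. Both ends of that overlap were arrays at odds with their labels: the highest euploid signal, 9.98, and the lowest Ts66Yah signal, 8.95, came from litter WT19, and on both arrays the other Mmu16 genes stood nearer to the opposite genotype. The means were 9.20 ± 0.301 (SD, n = 23) and 9.81 ± 0.308 (SD, n = 24), a difference of 0.61 (SE 0.088, 95% interval 0.43 to 0.78, limma adjusted p = 1.11e-05). On the low-spread array the Gart signal was 4.39. With that array the euploid mean fell to 9.00 ± 1.03 (SD, n = 24), the difference was 0.81 (SE 0.21, 95% interval 0.39 to 1.23), and the call was lost. Without the 4 arrays at odds with their labels the difference was 0.55 in Ts65Dn and 0.70 in Ts66Yah, and Gart was called in both. Those arrays were picked by genes that share the copy number of Gart. Leaving them out tends to widen the Gart difference by its design, so these values are no separate support.

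The ratio of 3 gene copies to 2 is 1.5. On the fold scale the 95% interval of Gart was 1.31 to 1.59 in Ts65Dn and 1.35 to 1.72 in Ts66Yah, and 1.5 lay inside both. Leaving out 1 litter moved the Ts66Yah fold between 1.44 (without WT15) and 1.70 (without WT19, 0.76 on the log2 scale, SE 0.076). How near it lay to 1.5 thus depended on the litters used. The increase in Ts66Yah exceeded that in Ts65Dn by 0.08 on the log2 scale (SE 0.12, 95% interval -0.15 to 0.31), which did not pass the test of the difference (limma adjusted p = 0.92). That test called 33 probe sets (0.149%) in all and no member. With the low-spread array the difference between models was 0.28 (SE 0.24), without the 4 arrays at odds with their labels 0.16, and without litter WT19 0.24, and it was called under none of these.

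**Figure D2:**
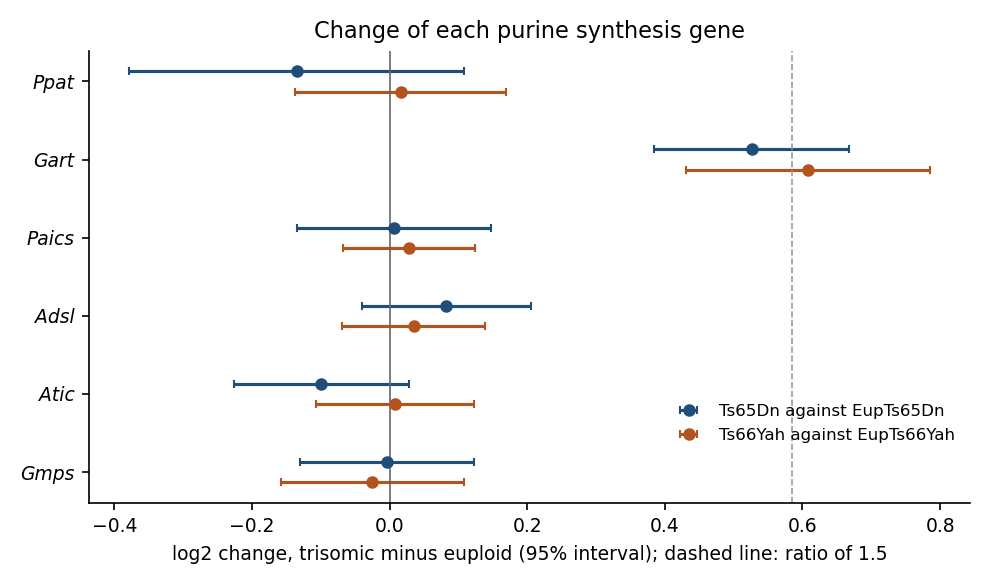
Points are the log2 change of each measured member, trisomic minus euploid, with 95% intervals from limma, blue for Ts65Dn and orange for Ts66Yah; the solid line is no change and the dashed line a ratio of 1.5. Gart stands at 0.53 and 0.61, and the intervals of all other members cross 0.

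Within litters, where trisomic and euploid embryos share a dam, Gart was higher in the trisomic siblings in 11 of 12 litters. In the Ts65Dn colony all 6 litters showed it, with differences of means from 0.36 in litter TS137 to 0.73 in litter TS18. In the Ts66Yah colony 5 of 6 litters did, from 0.20 in WT11, which had a single euploid embryo, to 1.09 in WT15. The exception was WT19, at -0.079 with 3 trisomic and 6 euploid embryos. Without its 2 arrays at odds with their labels, the difference in WT19 was 0.24, from 2 and 5 embryos. Since genes with the copy number of Gart picked those arrays, the change of sign is no separate support. Leaving out WT19 raised the Ts66Yah difference from 0.61 to 0.76, and leaving out any 1 litter gave 0.53 to 0.76. Embryos labelled female differed by 0.61 in Ts65Dn and 0.68 in Ts66Yah, and those labelled male by 0.44 and 0.52. The difference between the sexes was not tested.

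**Figure D3:**
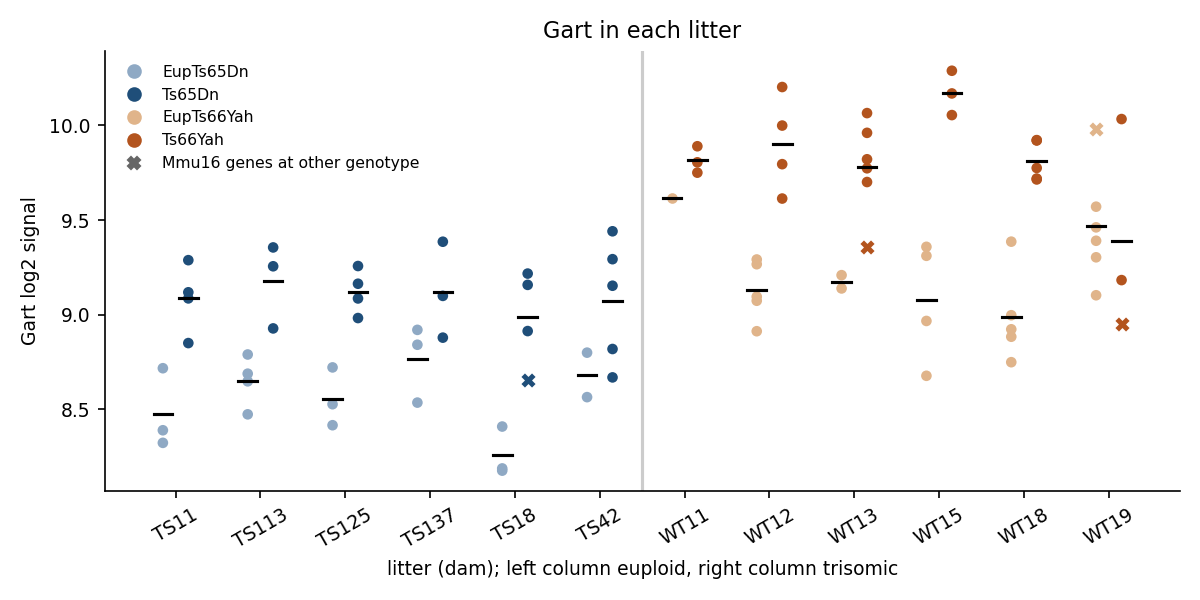
The Gart log2 signal of each embryo is plotted by litter, euploid siblings in the left column and trisomic in the right column of each litter, with black bars for litter means; crosses mark the 4 arrays whose other Mmu16 genes stood nearer to the opposite genotype, and the low-spread array is left out. The right column is higher in every litter except WT19, whose means are reversed.

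Ppat encodes the amidotransferase of the first, committed step, the one that AMP and GMP inhibit. In the Ts65Dn colony its signal ran from 5.22 to 6.53 (median 6.22) in euploid and from 4.27 to 6.55 (median 6.04) in trisomic embryos. The lowest trisomic embryo, at 4.27 in litter TS42, stood apart from the others, which overlapped the euploid embryos, and 5 of 23 trisomic embryos lay above the euploid median. The change was -0.14 (SE 0.12, 95% interval -0.38 to 0.11, limma adjusted p = 0.96), the widest interval of the measured members in that model. Without litter TS42 it was -0.044 (SE 0.074, limma adjusted p = 0.99). Among Ts66Yah siblings it ran from 5.85 to 7.19 (median 6.97) in euploid and from 6.54 to 7.22 (median 6.89) in trisomic embryos, a change of 0.016 (SE 0.076, limma adjusted p = 0.96). Ppat was the dimmest member relative to its array, brighter than 59.0% and 56.9% of all probe sets in the Ts65Dn and Ts66Yah colonies.

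Paics encodes the enzyme that joins the carboxylase and the following synthetase step. Its signal ran from 8.61 to 9.53 (median 9.26) in EupTs65Dn and from 8.84 to 9.65 (median 9.22) in Ts65Dn, a change of 0.0061 (SE 0.070, limma adjusted p = 1.00). Across the Ts66Yah colony it ran from 9.85 to 10.56 (median 10.33) in euploid and from 10.03 to 10.60 (median 10.35) in trisomic embryos, a change of 0.028 (SE 0.048, limma adjusted p = 0.85). Trisomic and euploid embryos overlapped throughout in both colonies. Paics was brighter than 94.5% and 95.6% of probe sets, and its 95% intervals were -0.13 to 0.15 and -0.067 to 0.12.

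Adsl encodes adenylosuccinate lyase, which acts both on the way to IMP and again on the way to AMP. It ran from 7.07 to 7.73 (median 7.35) in EupTs65Dn and from 7.06 to 7.81 (median 7.47) in Ts65Dn. Of 23 Ts65Dn embryos, 16 lay above the euploid median, but the change of 0.082 (SE 0.061, 95% interval -0.041 to 0.21) did not pass (limma adjusted p = 0.93). In the Ts66Yah colony it ran from 7.92 to 8.54 (median 8.13) in euploid and from 8.06 to 8.52 (median 8.23) in trisomic embryos, where 19 of 24 lay above the euploid median. The change there was 0.035 (SE 0.052, limma adjusted p = 0.82). No trisomic embryo of that colony lay above the highest euploid embryo.

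Atic encodes the bifunctional enzyme that adds the second formyl carbon and closes the ring to IMP. It ran from 6.83 to 7.60 (median 7.34) in EupTs65Dn and from 6.85 to 7.58 (median 7.27) in Ts65Dn, a change of -0.099 (SE 0.063, 95% interval -0.23 to 0.028, limma adjusted p = 0.93). Leaving out 1 litter moved it between -0.17 (without TS137) and -0.017 (without TS42), called under neither. Every Ts65Dn embryo lay within the euploid range. Among Ts66Yah siblings it ran from 7.41 to 8.32 (median 7.89) in euploid and from 7.49 to 8.07 (median 7.92) in trisomic embryos, a change of 0.0076 (SE 0.057, limma adjusted p = 0.97).

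Gmps encodes GMP synthetase, the last enzyme on the GMP branch after Impdh2. It ran from 8.46 to 9.13 (median 8.75) in EupTs65Dn and from 8.41 to 9.03 (median 8.83) in Ts65Dn, a change of -0.0035 (SE 0.063, limma adjusted p = 1.00). In the Ts66Yah colony it ran from 8.51 to 9.52 (median 9.30) in euploid and from 8.74 to 9.46 (median 9.26) in trisomic embryos, a change of -0.026 (SE 0.066, limma adjusted p = 0.91). The low-spread array, at 3.54, turned that change to 0.21 (SE 0.24), which was not called. It also moved Paics to 0.21, Adsl to 0.12 and Atic to 0.10 in Ts66Yah, none called, and left Ppat at 0.019.

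Over the 5 members in 2 copies, the widest 95% limits of a fold change were 0.769 (Ppat) and 1.15 (Adsl) in Ts65Dn and 0.896 and 1.12 in Ts66Yah. The upper limits lay below the lower limits of Gart, 1.31 and 1.35, in the same models. With the low-spread array kept, the upper limit of Gmps was 1.61 and the lower limit of Gart 1.31, so that statement rests on leaving the array out. None of the 5 differed between the models (differences of -0.047 to 0.15, limma adjusted p = 0.83 to 0.97). A p above the threshold does not show that these genes were unchanged, and the intervals give the sizes that these embryos leave possible.

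Gart was then set against the other genes of the triplicated Mmu16 part, of which 117 between Mrpl39 and Zbtb21 were measured. Of these, 55 (47%) were called higher in Ts65Dn and 59 (50.4%) in Ts66Yah, and none lower. With the low-spread array, 26 were called in Ts66Yah. The median fold was 1.25 in both models. Many genes of the part were dim, and among the 60 with a signal at or above the median of all probe sets, 54 were called in Ts65Dn and 56 in Ts66Yah. The median fold of those 60 was 1.35 (quartiles 1.31 and 1.43) in Ts65Dn and 1.33 (1.27 and 1.40) in Ts66Yah. The Gart change thus stood above the upper quartile in both, ranking 13 of 117 in Ts65Dn and 4 of 117 in Ts66Yah (12 and 3 among the 60), as a description of order with no test of it.

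**Figure D4:**
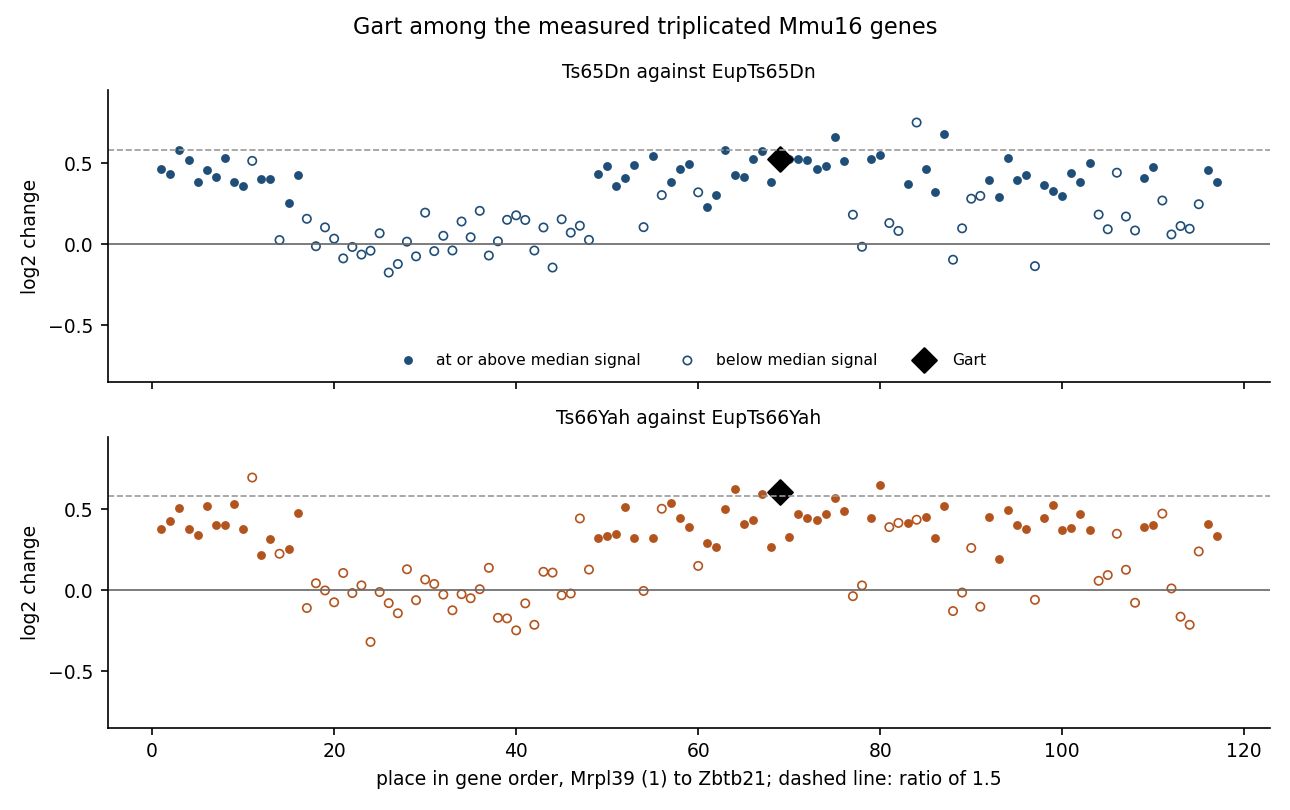
The log2 change of each of the 117 measured Mmu16 genes is plotted in gene order, for Ts65Dn above and Ts66Yah below; filled points have a signal at or above the median of all probe sets, open points are dimmer, the diamond is Gart and the dashed line a ratio of 1.5. Filled points lie above 0 in both panels, most open points lie near 0, and Gart sits in the upper part of the filled points.

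Of the 5 measured genes on each side of Gart, all were called higher in Ts65Dn and all but Dnajc28 in Ts66Yah. The cytokine receptor genes Il10rb, Ifnar1 and Ifngr2 lie on one side, with Tmem50b and Dnajc28. Ifngr2 was 1.44-fold higher in Ts65Dn and 1.35-fold in Ts66Yah, Ifnar1 was 1.33-fold higher in both, and Il10rb 1.34-fold and 1.54-fold. Tmem50b was 1.49-fold and 1.51-fold higher. Dnajc28 was 1.30-fold higher in Ts65Dn (limma adjusted p = 0.035), and its 1.20-fold difference in Ts66Yah did not pass (limma adjusted p = 0.15). On the other side lie Son, Donson, a replication fork factor, Cryzl1, Itsn1, an endocytic scaffold, and Atp5o, a subunit of mitochondrial ATP synthase. Donson was 1.44-fold and 1.39-fold higher, Cryzl1 1.43-fold and 1.36-fold, Itsn1 1.38-fold and 1.35-fold, and Atp5o 1.40-fold in Ts65Dn and 1.39-fold in Ts66Yah. In all, 10 of these 10 genes were called in Ts65Dn and 9 of 10 in Ts66Yah, against 47% and 50.4% of the measured triplicated genes. All 10 were among the 60 brighter genes, of which 54 and 56 were called, so these counts are near that background. With the low-spread array 6 of 10 were called in Ts66Yah.

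Son, whose start faces away from that of Gart, gave 1.44-fold in Ts65Dn (0.52, SE 0.068, limma adjusted p = 9.40e-07), the same fold as Gart to 3 digits. In Ts66Yah it gave 1.26-fold (0.33, SE 0.058, limma adjusted p = 0.00048) where Gart gave 1.52-fold. The difference of the Son effect between the models was -0.19 (95% interval -0.37 to -0.018), which did not pass after adjustment (limma adjusted p = 0.66). Whether Son and Gart differed from each other within Ts66Yah was not tested.

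Across embryos the genes most like Gart were other triplicated genes when the genotype difference was left in. Over 41 embryos of the Ts65Dn colony and 47 of the Ts66Yah colony, the mean of the 2 Pearson correlations with Gart was 0.80 for Atp5o, 0.78 for Synj1, 0.76 for Ifnar2, 0.76 for App and 0.75 for Dop1b. All of the top 20 among 19571 named probe sets were triplicated Mmu16 genes. Such genes share the copy number of Gart, so pooling trisomic and euploid embryos favours them by design. Son ranked 39, at 0.60. When each genotype group's mean was subtracted, the order changed: Ubl7 (0.59), Gng2 (0.54), Gatc (0.54), Snap25 (0.52) and Atat1 (0.50) led, and 1 of the top 20 was a triplicated gene. These correlations describe embryos that share litters and array scale, and carry no test.

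Among the members, the closest pair after the group means were subtracted was Paics and Gmps, with Pearson r of 0.68 in both colonies. By the mean of the 2 colonies, the best match of Gart was Adsl (0.39 in Ts65Dn, 0.36 in Ts66Yah), which ranked 167 among all named probe sets by its likeness to Gart. By the same mean, Ppat was best matched by Gmps (0.29 in both), and Atic by Gmps (0.44 and 0.19). In the Ts66Yah colony alone the order differed, with Ppat closest to Paics and Atic closest to Gart (0.27). Ppat and Paics, whose starts lie 276 bases apart, gave 0.076 in the Ts65Dn colony and 0.41 in the Ts66Yah colony. The 15 member pairs had thus only 1 with a correlation above 0.5 in both colonies, and Gart was not in it.

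The genes that feed the pathway, use its products or run beside it were examined by 7 lists. They covered PRPP supply, the AMP and GMP branches, salvage, breakdown, and folate and one-carbon supply. The others held folate and one-carbon genes with human counterparts on chromosome 21 that neither model triplicates, and pyrimidine synthesis with ribonucleotide reductase. Of 69 listed genes 61 were measured, and by limma none was called in Ts65Dn, in Ts66Yah, or in the difference between them. Over all probe sets 0.491%, 0.932% and 0.149% were called, so a count of 0 among 61 genes is near that background. At an unadjusted p under 0.05 there were 3, 7 and 1 of the 61. The share of all probe sets at that cutoff was not counted, so these counts show neither an excess nor a lack. The median log2 change over the 61 genes was 0.013 in Ts65Dn and 0.040 in Ts66Yah, beside -0.0021 and 0.0044 over all probe sets. Over the probe sets with a signal at or above the median it was -0.0078 and 0.026. Centring each array moved the Ts66Yah median over all probe sets to -0.0395. With the low-spread array the Ts66Yah median over the 61 genes was 0.11, beside 0.043 over all probe sets, and again none of the 61 was called.

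PRPP is made by the Prps enzymes, and 0 of 4 measured genes of this list were called. Prps2 had the smallest p in Ts65Dn (1.09-fold, limma adjusted p = 0.93) and Prpsap2, a subunit associated with these enzymes, in Ts66Yah (1.06-fold, limma adjusted p = 0.62). On the AMP and GMP branches 0 of 6 were called. The 6 changes of that list were all above 0 in Ts65Dn (median 0.11) and evenly split in Ts66Yah (median 0.022). Over all probe sets 49.0% and 51.6% were above 0, and the signs of the list were not tested. The smallest p there belonged to the adenylate kinase gene Ak4 in Ts65Dn (1.12-fold, limma adjusted p = 0.81) and to the adenylosuccinate synthase gene Adss in Ts66Yah (0.955-fold, limma adjusted p = 0.53). For the difference between models it belonged to Impdh1, the other gene for IMP dehydrogenase, at -0.23 (limma adjusted p = 0.83).

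Salvage enzymes recycle free bases and nucleosides, and 0 of 8 were called. Ada, adenosine deaminase, had the smallest p in both models, at 1.15-fold in Ts65Dn (limma adjusted p = 0.90) and 1.27-fold in Ts66Yah (0.34, SE 0.10, limma adjusted p = 0.13). The latter was the nearest to a call of the 61 genes. With the low-spread array Ada stood at 0.30 in Ts66Yah (limma adjusted p = 0.37). In Ts66Yah 7 of 8 salvage changes were above 0 (median 0.094), and in Ts65Dn 3 of 8 (median -0.0080). Over all probe sets 51.6% were above 0 in Ts66Yah and 49.0% in Ts65Dn. Among probe sets with a signal at or above the median the Ts66Yah share was 62.7%. Over all probe sets it was 35.2% once each array was centred, so sign counts in Ts66Yah depend on array scale. Of the 10 measured breakdown genes none was called. The nucleotidase gene Nt5c led in Ts65Dn (1.11-fold, limma adjusted p = 0.72) and the AMP deaminase gene Ampd3 in Ts66Yah (1.20-fold, limma adjusted p = 0.20).

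Folate supplies the formyl groups that Gart and Atic use, and 0 of 21 measured genes of this list were called. Mthfd2l, a mitochondrial folate dehydrogenase, gave 1.09-fold in Ts65Dn (limma adjusted p = 0.77), and Slc25a32, the mitochondrial folate carrier, 0.896-fold in Ts66Yah (limma adjusted p = 0.30). The proton-coupled folate transporter gene Slc46a1 had the smallest p for the difference between models (0.36, limma adjusted p = 0.52). The reduced folate carrier gene Slc19a1, on human chromosome 21 but in 2 copies in these mice, gave 1.05-fold in both models (limma adjusted p = 0.95 and 0.58). Pyrimidine synthesis runs in parallel to purine synthesis, and 0 of 9 genes of its list were called. That list also holds the ribonucleotide reductase genes Rrm1, Rrm2 and Rrm2b, which serve purine and pyrimidine nucleotides alike. Its smallest p belonged to the CTP synthase gene Ctps in Ts65Dn (0.940-fold, limma adjusted p = 0.93) and to Dhodh, dihydroorotate dehydrogenase, in Ts66Yah (1.08-fold, limma adjusted p = 0.55).

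**Figure D5:**
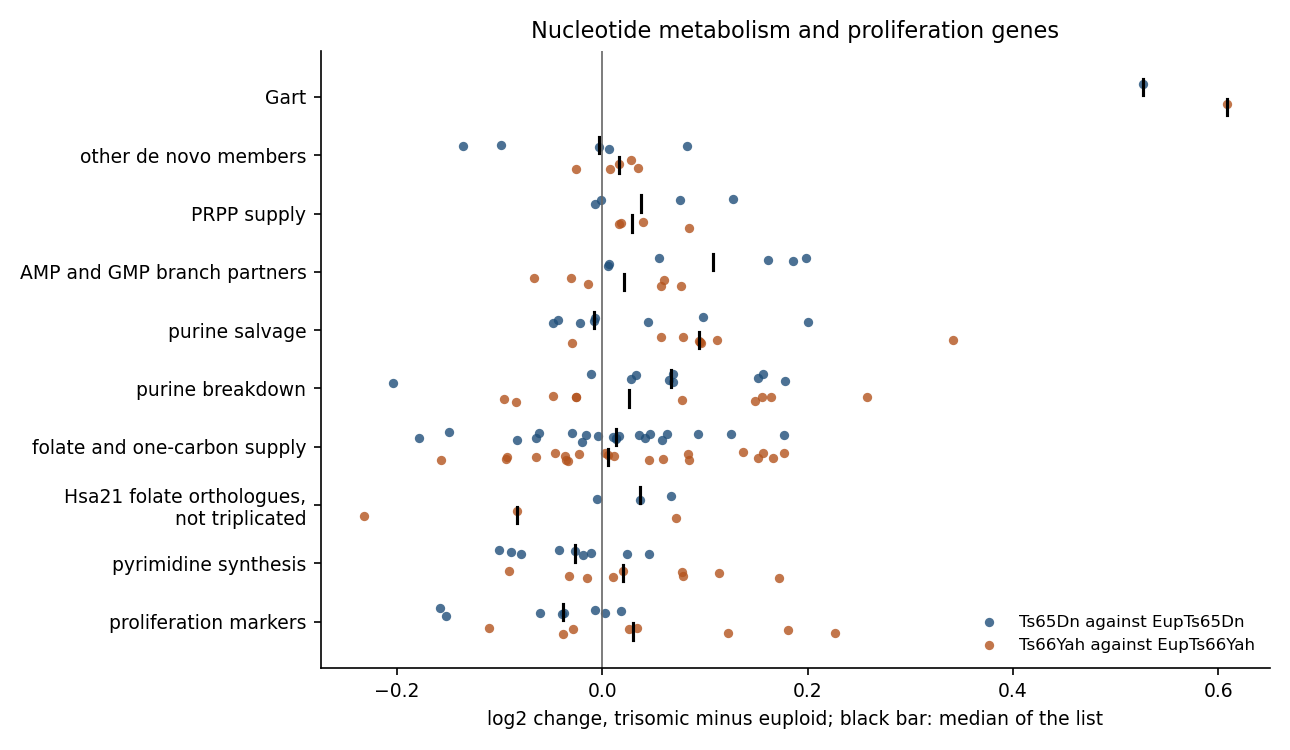
Each point is the log2 change of 1 gene, grouped by list, blue for Ts65Dn and orange for Ts66Yah, with a black bar at the median of each list. Gart lies to the right of every other gene shown, and the remaining genes scatter around 0.

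Purine synthesis is most active in dividing cells, so proliferation markers were read beside the members. Of 9 markers 8 were measured. None was called in Ts65Dn, where the smallest p was that of Mki67 (0.900-fold, limma adjusted p = 0.87). In Ts66Yah 1 of 8 was called, the mitotic kinase gene Aurkb (1.17-fold, limma adjusted p = 0.092), and with the low-spread array it was not (limma adjusted p = 0.23). Over all probe sets 0.491% were called in Ts65Dn and 0.932% in Ts66Yah. The median change of the 8 markers in Ts66Yah was 0.030, with 5 above 0 and 3 below, so the call of Aurkb does not describe the list. The mean log2 signal over the 8 markers ran from 6.77 to 7.25 in EupTs65Dn and from 6.71 to 7.18 in Ts65Dn, and from 7.62 to 8.34 in EupTs66Yah and from 7.93 to 8.30 in Ts66Yah. The ranges of trisomic and euploid embryos overlapped in both colonies, and their part in the Gart difference was not tested.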

How the data were processed

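Total RNA of 89 forebrains was hybridised to Clariom S arrays. The deposited values are log2 signals, summarised by RMA per the submitters' processing notes; version and settings were not given in the sources used here, nor was the build of the array annotation. No probe set was filtered. Of 22206 probe sets, 19572 carried 1 gene symbol, 0 several and 2634 none. Each trisomic group was compared with its own euploid group by limma 3.58.1 in R 4.3.3 (lmFit and eBayes, two-sided, genotype only) and p-values were adjusted by the Benjamini-Hochberg method across the whole array, with calls at 10%. The difference of effects came from 1 model of the 4 groups. An array was left out where its standard deviation was under 0.75 times its colony's median, which took 1 array and left 88.

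The members, lists and tests were chosen with earlier results of these data known. Named genes were all members, the 5 measured genes on each side of Gart, the members of each list past the threshold or else the one with the smallest p, and the 5 probe sets most like Gart; for the difference between models, not every such gene is named. Replicates are embryos, and their litter comes from the labelled dam, whose number pairs siblings; p-values treat siblings as separate. The number of arrays limits precision. Blood markers were checked too (1 of 3 measured, 0 called). The fit code was also run on simulated data with separate noise for each embryo. Those data held no litter or array effects, so the run does not bear on them. Alternatives were the litter as a block, labelled sex in the model, the methods' t-test, calls at 0.05, the study's marginal criterion (unadjusted p under 0.01, ratio below 0.8 or above 1.2), bright probe sets only, centring, quantile normalization, array weights, all 4 groups in 1 fit, leaving out each litter, and leaving out arrays at odds with their label. Y-linked genes were not used, and labelled sex was taken as given. Figures were drawn with matplotlib 3.10.9.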

Additional observations from a re-analysis of the deposited data

How the results depend on the processing

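The Gart increase in Ts65Dn kept its direction and its call under every alternative run, with 0.49 to 0.56 on the log2 scale when 1 litter was left out. In Ts66Yah it did so under all but one: with the low-spread array kept it was 0.81 (limma adjusted p = 0.14), and 0 members were called, where its adjusted p was at most 0.0043 under the others. Leaving out 1 litter gave 0.53 to 0.76. The difference of the Gart effects between the models was 0.0042 to 0.28 and was called under none. With the litter as a block, which pairs siblings, the Gart increase was 0.54 in Ts65Dn and 0.61 in Ts66Yah and no member's call changed.

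Members in 2 copies were called under no alternative, and several estimates near 0 changed sign; the cause was not tested. In Ts65Dn, Paics was -0.0021 with labelled sex in the model, -0.019 with array weights and -0.081 to 0.065 without 1 litter. Without 1 litter, Ppat was -0.18 to -0.044, Atic -0.17 to -0.017 and Adsl 0.043 to 0.13. Gmps was 0.018 with the litter block, 0.0017 with array weights and -0.058 to 0.066 without 1 litter. In Ts66Yah, centring gave Ppat -0.028, Paics -0.016, Adsl -0.0091 and Atic -0.036, quantile normalization gave Ppat -0.029 and Atic -0.027, and array weights gave Ppat -0.0077 and Atic -0.0078. Without 1 litter, the Ts66Yah range was -0.060 to 0.066 for Ppat, -0.012 to 0.060 for Paics, -0.016 to 0.056 for Adsl, -0.027 to 0.064 for Atic and -0.064 to 0.0068 for Gmps. The low-spread array turned Gmps to 0.21. For the difference between models, Paics was -0.020 after centring and -0.037 to 0.11 without 1 litter, Gmps -0.091 to 0.033 without 1 litter, and the low-spread array gave Adsl 0.036 and Gmps 0.22.

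Counts over all probe sets moved more. The marginal criterion gave 246 in Ts65Dn, 422 in Ts66Yah and 351 for the difference, against 109, 207 and 33. In Ts66Yah 103 passed at 0.05, 131 after quantile normalization, 326 without the arrays at odds with their labels and 38 with the low-spread array, which left 2 for the difference. Leaving out litter WT12, WT15 or WT18 gave 71, 83 and 88. The number of arrays limits all of these values.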
